A study of Chlamydomonas reinhardtii with 20 samples.

Results

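The Calvin cycle and Rubisco genes described here are 10 nuclear genes of the green alga Chlamydomonas reinhardtii, chosen by gene ID as a set of carbon fixation enzymes. The choice was made with earlier results of these data known. Of the 17737 gene IDs in the deposited expression table, 9 belong to this set: RBCS1 (Cre02.g120100), RBCS2 (Cre02.g120150), RCA1 (Cre04.g229300), PRK1 (Cre12.g554800), SEBP1 (Cre03.g185550), FBP1 (Cre12.g510650), TRK1 (Cre02.g080200), RPE1 (Cre12.g511900) and FBA3 (Cre05.g234550). GAP3 (Cre01.g010900), the chloroplast glyceraldehyde phosphate dehydrogenase, was not analysed here. The gene names are those of the list that set the members, since neither the deposited table nor the RefSeq gene table pairs these IDs with symbols. All 9 passed the filter on low values.

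RNA was sequenced in 20 libraries, 2 in each of 10 groups. After 4 h of white light with 0.1 mM biliverdin (BV, an open-chain tetrapyrrole that heme oxygenase makes from heme), there were groups of the heme oxygenase mutant hmox1 and of the wild type 4A+. After 4 h of white light without BV there were groups of ho1C2, ho1C1, hmox1 and 4A+. The lines ho1C1 and ho1C2 are labelled as complemented strains of hmox1, and no source used here says how they were made. For both lines, libraries from dark cultures and from 0.5 h of white light, again lacking BV, were made as well. All strains were kept in the dark on an acetate medium that held methanol, and BV where it was used was in that medium from the start. The treatment protocol names 0.5 h of light, and the 4 h groups rest on the sample labels. Neither 4A+ nor hmox1 has a dark library here, so light responses were compared in the complemented lines alone.

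In the Calvin cycle, Rubisco joins CO2 to the sugar ribulose bisphosphate, and the products are reduced and rearranged to make that sugar again. Rubisco's small subunit is encoded in the nucleus of this alga by a pair of very similar genes, RBCS1 and RBCS2, while its large subunit is encoded in the chloroplast. Acetate lets the alga grow in the dark without the cycle, and several of its enzymes are switched on in the light through reduction by thioredoxin.

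Values are taken as RPKM, inferred from the values since no header names the unit. RPKM divides reads by gene length and by the library's reads. If the unit is right, levels can be set beside each other between genes. Differences are on the log2(RPKM + 1) scale with their standard error (SE), and a gene was called at a Benjamini-Hochberg adjusted p under 0.05 in a limma fit over 13871 genes and all 20 libraries. A lower level can mean fewer transcripts per cell or more RNA from other genes, which these values cannot tell apart. Library totals of RPKM ran from 718144 to 797204 and read depth is unknown. The labels call the replicates biological and do not say whether they were separate cultures, so the spread behind each p-value may be technical. The hmox1 libraries without BV were the least alike pair, with a median absolute log2 difference over all tested genes of 0.155, against 0.07 to 0.0886 in the other groups. The fit takes a shared spread per gene from all groups, so p-values that involve that pair may be too small. With library factors that centre the ratios of genes detected in every library (median-ratio factors), the median difference over all tested genes moved by 0.31 and 0.38 for 0.5 h against dark in ho1C2 and ho1C1, by 0.15 in both lines for 4 h against dark, and by -0.25 for hmox1 against 4A+ without BV. The rescaled value is given beside many of the values that these factors turn, end or move by over 1.5 times, but not beside all of them.

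All 9 genes were abundantly expressed. RBCS2 lay between 6951 and 13365 RPKM and ranked between 1 and 9 among all IDs in each library. It ranked 1 in every dark and 0.5 h library and from 3 to 9 in those lit for 4 h. RBCS1, its neighbour with 0 genes between them in the RefSeq v5.5 gene order, lay between 511 and 2020.1 RPKM. FBP1, at 167 to 449.9 RPKM, and PRK1, at 169 to 763 RPKM, were the least abundant. The level changed least for TRK1, whose highest group mean was 1.35 times its lowest, and most for PRK1, RBCS1 and RCA1, at 4.25, 3.86 and 3.55 times.

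The complemented lines show how these transcripts moved when dark-grown cells met light. After 4 h of light 8 of 9 members in ho1C2 and 7 of 9 in ho1C1 were higher, where 22.6% and 26% of all tested genes were higher. RBCS2 alone was lower, where 45.6% and 43.5% of all tested genes were lower and 68.2% and 69.5% were called in either direction. The difference was 0.87 to 1.85 on the log2 scale for the 7 members called higher in both lines, and for TRK1 0.14 and 0.11, or 0.32 and 0.29 with median-ratio factors. The small subunit genes moved in opposite directions. At 0.5 h the differences of FBP1, RCA1, RBCS1 and RPE1 were 0.43 to 0.65, and those of PRK1, SEBP1 and FBA3 were 0.13 to 0.27. With median-ratio factors they were 0.83 to 1.13 and 0.53 to 0.68, all called, so the order of these sets held and their sizes did not.

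**Figure D1:**
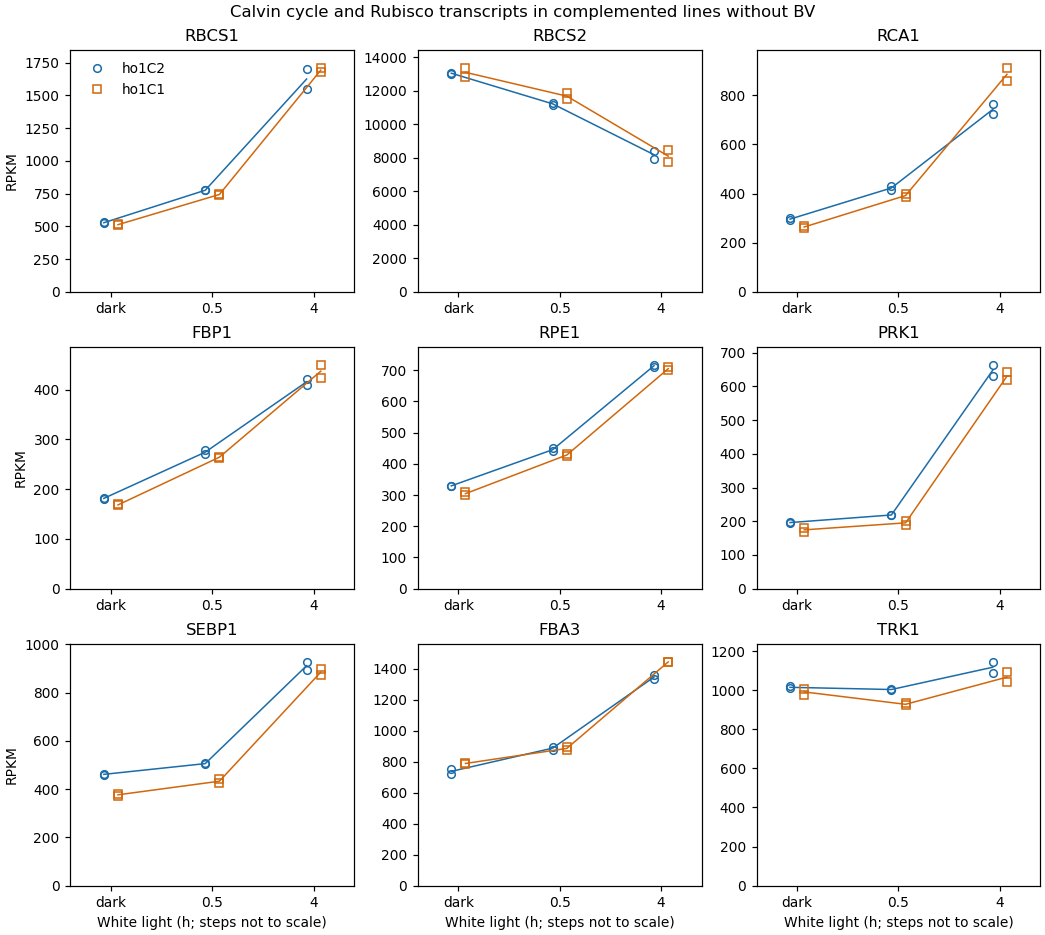
Levels in RPKM (vertical axes from 0) at 3 times, dark, 0.5 h and 4 h of white light, in ho1C2 (circles) and ho1C1 (squares), with 1 point per library and lines through the means of 2. RBCS2 is lower at each step of light, TRK1 stays between 922 and 1146 RPKM, and the other 7 genes are highest at 4 h.

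RBCS2 was at 13018 and 13071 RPKM in the dark, 11273 and 11160.1 at 0.5 h and 7953 and 8408 at 4 h in ho1C2. In ho1C1 it was at 12828 and 13365 in the dark, 11855 and 11496 at 0.5 h and 7757 and 8432 at 4 h. In both lines every library was lower than those of the step before. The 4 h difference from dark was -0.67 in ho1C2 (SE 0.05, adjusted p = 9.95e-10) and -0.69 in ho1C1 (SE 0.05, adjusted p = 5.19e-10). With median-ratio factors it was -0.49 and -0.51 and stayed called. The 0.5 h difference was -0.22 in ho1C2 (adjusted p = 0.000561) and -0.17 in ho1C1 (adjusted p = 0.00488), and it turned to 0.18 and 0.32 with median-ratio factors. In ho1C1 the call at 0.5 h was also lost without dark replicate 2 (-0.14, adjusted p = 0.054).

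RBCS1 went the other way. Its level in ho1C2 was 524 and 531 RPKM in the dark, 774 and 778 at 0.5 h and 1549.6 and 1701 at 4 h. In ho1C1 it was 514 and 511 in the dark, 749 and 739 at 0.5 h and 1676 and 1711 at 4 h. No library of a later time overlapped an earlier one. The 4 h level was 3.07 times that in the dark in ho1C2 (difference 1.62, SE 0.06, adjusted p = 1.58e-13) and 3.30 times in ho1C1 (1.72, SE 0.06, adjusted p = 5.12e-14).

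RBCS1 thus made up a growing share of small subunit transcript. Of the RBCS1 and RBCS2 values together, RBCS1 held 3.87% and 3.91% in the dark, 6.43% and 6.51% at 0.5 h and 16.3% and 16.8% at 4 h in ho1C2, and 3.86% and 3.69%, 5.94% and 6.04%, and 17.8% and 16.9% in ho1C1. This share is taken within a library, so no library factor changes it. No source used here says how reads shared by such similar copies were divided, and the split between the genes is uncertain to that extent. Their sum adds RPKM and not reads, so it too depends on that split where the gene lengths differ, and the lengths are not known here. Entered as 1 row in place of the pair, it was -0.47 at 4 h against dark in ho1C2 (SE 0.04, adjusted p = 2.96e-08) and -0.48 in ho1C1 (SE 0.04, adjusted p = 2.04e-08). With median-ratio factors it was -0.28 and -0.29, called in both lines.

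FBP1, fructose bisphosphatase, had the largest 0.5 h difference of the 9 genes in each line. It was at 180.5 and 182 RPKM in the dark, 269.9 and 279 at 0.5 h and 409 and 422 at 4 h in ho1C2, and at 169 and 167, 263 and 265, and 449.9 and 424 in ho1C1. Its 0.5 h difference was 0.59 in ho1C2 (SE 0.05, adjusted p = 2.55e-09) and 0.65 in ho1C1 (SE 0.05, adjusted p = 6.56e-10). These are 49.8% and 47.2% of the 4 h differences of 1.19 and 1.37, and 71.9% and 72.7% with median-ratio factors. This early share depends on the scaling in every gene.

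RCA1, Rubisco activase, which frees Rubisco of inhibitory sugar phosphates, was at 292 and 300.1 RPKM in the dark, 413 and 432.5 at 0.5 h and 722 and 763 at 4 h in ho1C2. In ho1C1 it was at 260.3 and 268, 385 and 399, and 912 and 859.6. The 4 h difference was smaller in ho1C2, at 1.32 (SE 0.05, adjusted p = 5.72e-14), than in ho1C1, at 1.74 (SE 0.05, adjusted p = 1.08e-15). The test of that difference between lines gave -0.42 (SE 0.07, adjusted p = 0.000912). The 0.5 h differences were 0.51 and 0.57, and that between lines was not called (-0.06, SE 0.07, adjusted p = 0.806).

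RPE1, ribulose phosphate epimerase, was at 329 and 329.8 RPKM in the dark, 449.7 and 441 at 0.5 h and 717 and 711 at 4 h in ho1C2, and at 299.9 and 309, 433 and 424, and 709 and 700.2 in ho1C1. The 2 libraries of each group lay close together and the times did not overlap. Its 0.5 h differences, 0.43 in ho1C2 and 0.49 in ho1C1, were 38.9% and 40.7% of those at 4 h. The same share was 34.3% and 31.1% for RBCS1 and 38.8% and 32.7% for RCA1. With median-ratio factors it was 63.9% and 70% for RPE1, 52.8% and 53.5% for RBCS1, and 60.3% and 54.6% for RCA1.

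PRK1, phosphoribulokinase, which makes the acceptor sugar for CO2, had the lowest early share of the 7 genes under both scalings. It was at 195 and 197 RPKM in the dark, 218 and 219 at 0.5 h and 632 and 664 at 4 h in ho1C2. In ho1C1 it was at 179.6 and 169, 202 and 189, and 642 and 618. Its 4 h difference was 1.72 in ho1C2 (SE 0.06, adjusted p = 1.85e-14) and 1.85 in ho1C1 (SE 0.06, adjusted p = 4.82e-15), the largest among the 9 genes in each line. Of this, 9.08% and 8.73% had been reached at 0.5 h, and 29% and 31.7% with median-ratio factors. The 0.5 h differences themselves, 0.16 in both lines, were called with adjusted p = 0.0194 in ho1C2 and 0.0156 in ho1C1, but not when any of the 4 libraries of ho1C2 was left out (adjusted p from 0.0508 to 0.082), nor without dark replicate 2 or 0.5 h replicate 1 of ho1C1 (adjusted p = 0.136 and 0.153). With median-ratio factors they were 0.55 and 0.64 (adjusted p = 2.11e-07 and 2.68e-08).

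SEBP1, sedoheptulose bisphosphatase, was at 463.5 and 459 RPKM in the dark, 505 and 506 at 0.5 h and 928 and 894 at 4 h in ho1C2, and at 379.8 and 373, 442 and 424, and 897 and 872 in ho1C1. The 0.5 h differences were 0.13 and 0.20, or 13.5% and 16.3% of the 4 h differences of 0.98 and 1.23. With median-ratio factors they were 0.53 and 0.68, or 45.4% and 48.3%. In ho1C2 the 0.5 h call was lost without dark replicate 2 (adjusted p = 0.0577) or 0.5 h replicate 2 (adjusted p = 0.0501). FBA3, fructose bisphosphate aldolase, was at 723 and 751 RPKM in the dark, 878 and 897 at 0.5 h and 1334 and 1359 at 4 h in ho1C2, and at 792 and 785.5, 875 and 896, and 1446 and 1442 in ho1C1. Its 4 h differences were both 0.87, with 30.8% and 19.2% reached at 0.5 h. With median-ratio factors that share was 63.1% and 61.7%, above those of RBCS1 in both lines, so FBA3 has no fixed place in the order of timing.

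TRK1, transketolase, which also serves the pentose phosphate pathway, had the smallest 4 h difference of the 9 genes. In ho1C2 it was at 1008 and 1020.1 RPKM in the dark, 999 and 1007 at 0.5 h and 1088 and 1146 at 4 h, and in ho1C1 at 1005 and 977, 933 and 922, and 1091 and 1042. The 4 h difference was 0.14 in ho1C2 (SE 0.06, adjusted p = 0.0408) and 0.11 in ho1C1 (SE 0.06, not called, adjusted p = 0.11). The call in ho1C2 was lost without dark replicate 1 (adjusted p = 0.135), dark replicate 2 (0.095) or 4 h replicate 2 (0.229). With median-ratio factors the 4 h difference was 0.32 (adjusted p = 7.26e-05) and 0.29 (adjusted p = 0.00021), called in both lines. At 0.5 h the difference was -0.02 in ho1C2 and -0.10 in ho1C1, neither called, and 0.38 and 0.39 with median-ratio factors, both called.

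At 0.5 h 8 of 9 members were called in each line, where 78.8% of all tested genes in ho1C2 and 81.2% in ho1C1 were called, so the number of calls is near that of all genes. Higher at 0.5 h were 7 of 9 members, against 22.6% and 21.7% of all tested genes, and 1 was lower, against 56.2% and 59.5%. The median difference of the 9 was 0.27 in ho1C2 and 0.20 in ho1C1, against -0.31 and -0.38 over all tested genes. With median-ratio factors all 9 were higher in both lines, where 5264 of 13728 tested genes in ho1C2 and 5346 in ho1C1 were higher. At 4 h the median of the 9 was 1.11 in ho1C2 and 1.23 in ho1C1, against -0.16 and -0.13 over all tested genes. Both the 0.5 h and the 4 h comparisons of a line use its 2 dark libraries.

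At 4 h against 0.5 h all members but RBCS2 were higher in both lines, where 44.6% of all tested genes in ho1C2 and 49% in ho1C1 were higher. RBCS2 was lower, where 26.4% and 24.4% were lower and 71% and 73.4% were called in either direction. PRK1 differed by 1.56 in ho1C2 and 1.69 in ho1C1, and RBCS2 by -0.46 and -0.53, or -0.67 and -0.83 with median-ratio factors. TRK1, at 0.15 and 0.20, turned to -0.06 and -0.10 with median-ratio factors and was then not called. In ho1C2 its call was also lost without either 0.5 h replicate (adjusted p = 0.0874 and 0.0668) or 4 h replicate 2 (0.157).

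The second question is how these transcripts differed with BV in cells lit for 4 h. BV was in the medium from the dark on and no dark library had BV. The differences therefore cannot be placed before or after the start of light. In the wild type the members split. PRK1, SEBP1 and FBA3 were higher with BV, by 0.43 to 0.65 on the log2 scale, while RBCS1, FBP1 and RPE1 were lower, by 0.30 to 0.38. In the mutant PRK1 and SEBP1 were not called, and RCA1 and RPE1 were lower by 0.58 and 0.52.

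**Figure D2:**
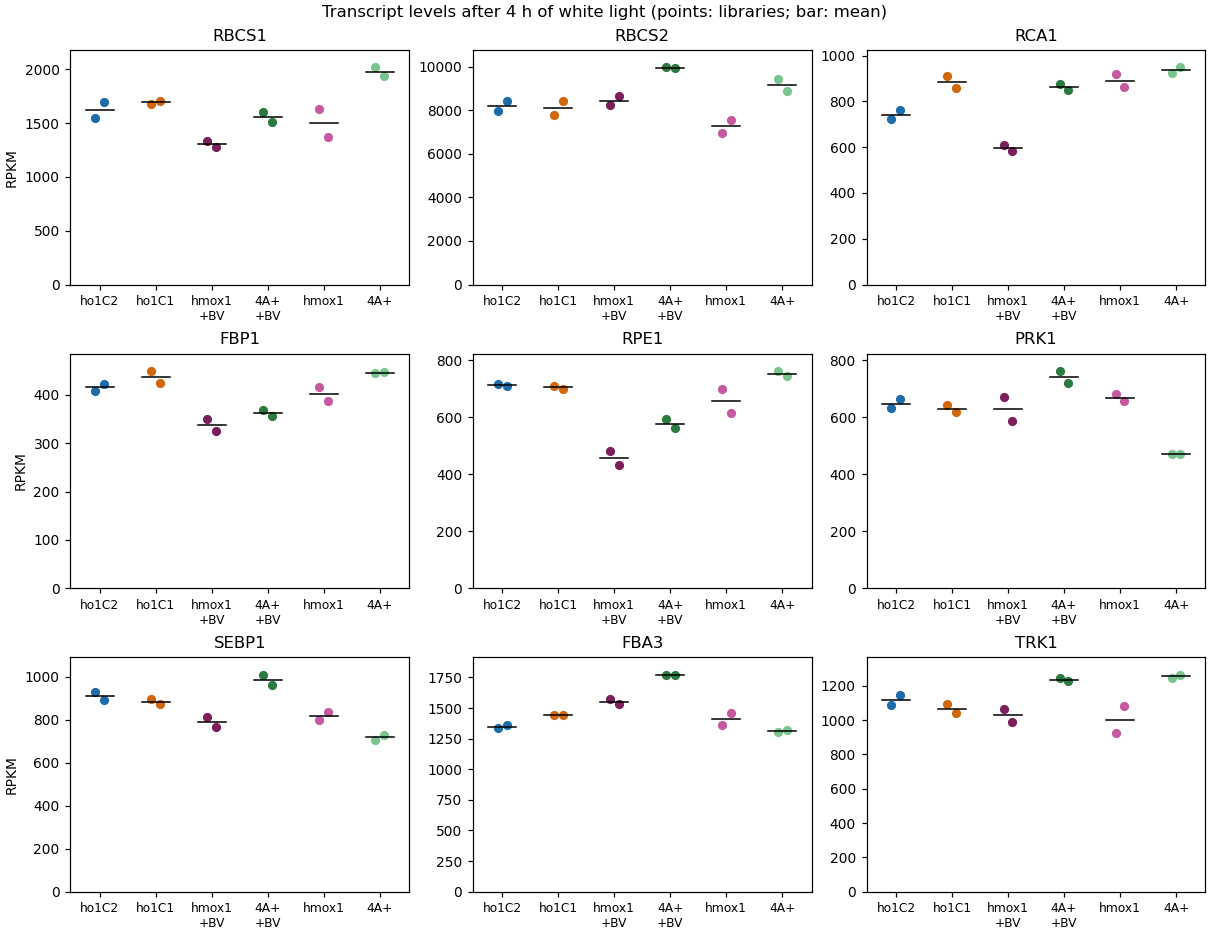
Levels in RPKM (vertical axes from 0) in the 6 groups lit for 4 h, with 1 point per library and a bar at the mean of 2. With BV, 4A+ holds the highest PRK1, SEBP1 and FBA3 levels, and hmox1 the lowest RCA1, RPE1, FBP1 and RBCS1 levels.

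PRK1 was at 763 and 719 RPKM in 4A+ with BV, against 472.1 and 471.9 in 4A+ without it (difference 0.65, SE 0.06, adjusted p = 1.72e-08). SEBP1 was at 1011 and 963 with BV, against 709 and 728 without it (0.46, SE 0.04, adjusted p = 5.95e-08). FBA3 was at 1773 and 1766 with BV, against 1302 and 1322 without it (0.43, SE 0.04, adjusted p = 3.94e-08). In none of the 3 did the groups overlap, and with median-ratio factors the differences were 0.60, 0.41 and 0.38, all called.

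RBCS1 was at 1608 and 1509 RPKM in 4A+ with BV, against 2020.1 and 1936 without it (-0.34, SE 0.06, adjusted p = 0.00014). RPE1 was at 594 and 561 with BV, against 763 and 744 without it (-0.38, SE 0.06, adjusted p = 1.23e-05). FBP1 was at 368 and 356 with BV, against 445 and 447 without it (-0.30, SE 0.05, adjusted p = 3.22e-05). These 3 genes were lower in 2 of 2 libraries, and remained called with median-ratio factors.

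The remaining differences in 4A+ were small. RCA1 was at 876 and 848 RPKM with BV, against 924 and 949 without it (-0.12, SE 0.05, adjusted p = 0.0417), and its call was lost without any 1 of the 4 libraries (adjusted p from 0.0607 to 0.213). RBCS2 was at 9967 and 9927 with BV, against 9422 and 8859.8 without it (0.12, SE 0.05, adjusted p = 0.0395). That call was lost without either BV replicate (adjusted p = 0.123 and 0.11), without replicate 2 of the group lacking BV (0.0782 on the log2 scale, adjusted p = 0.298) and with median-ratio factors (0.07). TRK1 was at 1242 and 1228 with BV, against 1242.5 and 1265 without it, and was not called (-0.02, SE 0.06, adjusted p = 0.774).

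In hmox1, RCA1 was at 608 and 583 RPKM with BV, against 919 and 863 without it (-0.58, SE 0.05, adjusted p = 8.71e-09). RPE1 was at 482 and 430.5 with BV, against 698 and 616 without it (-0.52, SE 0.06, adjusted p = 2.72e-07). FBP1 was at 349.8 and 325 with BV, against 416 and 387 without it (-0.25, SE 0.05, adjusted p = 0.000219). The groups did not overlap in these 3 genes. FBP1 was at -0.13 with median-ratio factors (adjusted p = 0.0447).

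RBCS1 was at 1339 and 1274 RPKM in hmox1 with BV, against 1635 and 1368 without it (-0.19, SE 0.06, adjusted p = 0.0142), a call that was lost without hmox1 replicate 1 lacking BV (-0.07, adjusted p = 0.301), without BV replicate 2 (-0.16, adjusted p = 0.103) and with median-ratio factors (-0.07). Without replicate 2 lacking BV the RBCS1 difference was -0.32 (adjusted p = 4.32e-05). RBCS2 was at 8244 and 8640.1 with BV, against 6951 and 7563 without it (0.22, SE 0.05, adjusted p = 0.000902). FBA3 was at 1573 and 1531 with BV, against 1361 and 1461 without it (0.14, SE 0.04, adjusted p = 0.00718). Its call was lost without hmox1 replicate 1 lacking BV (0.09, adjusted p = 0.0586) or BV replicate 1 (0.12, adjusted p = 0.0508). With median-ratio factors RBCS2 was at 0.34 and FBA3 at 0.26.

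The remaining 3 were not called in hmox1. PRK1 was at 672 and 588 RPKM with BV, against 681 and 656 without it (-0.09, SE 0.06, adjusted p = 0.196), SEBP1 at 813 and 768 against 799 and 838 (-0.05, SE 0.04, adjusted p = 0.351) and TRK1 at 1067 and 991 against 922 and 1080.3 (0.04, SE 0.06, adjusted p = 0.543). In each the groups overlapped. Without BV replicate 1, PRK1 was called lower (-0.185, adjusted p = 0.0138), and without replicate 2 lacking BV, TRK1 was called higher (0.16, adjusted p = 0.00774), as it was with median-ratio factors (0.16, adjusted p = 0.0187).

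The difference of the BV response between the strains was called for 4 of the 9 genes, each with the response in hmox1 below that in 4A+, against 33.6% of all tested genes called and 25.5% called in that direction. It was -0.74 for PRK1 (SE 0.08, adjusted p = 1.52e-06), -0.51 for SEBP1 (SE 0.06, adjusted p = 5.67e-06), -0.46 for RCA1 (SE 0.07, adjusted p = 4.35e-05) and -0.29 for FBA3 (SE 0.06, adjusted p = 0.000685). With median-ratio factors PRK1, SEBP1 and RCA1 were at -0.56, -0.33 and -0.29, all called. FBA3 was then not called (-0.12, adjusted p = 0.156). RBCS1 (0.32), RBCS2 (0.27), FBP1 (0.22) and TRK1 (0.24) were then called with a higher response in hmox1. On that scale 2196 of 13728 tested genes were called with a higher response in hmox1 and 2254 with a lower one.

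Counted over members, BV in 4A+ gave 4 higher and 4 lower of 9, against 32.1% and 27.4% of all tested genes (59.5% in either direction), with a median of -0.02 against 0.03. In hmox1 it gave 2 higher and 4 lower, against 20.5% and 37.7% (58.2% in either direction), with a median of -0.09 against -0.11. When the hmox1 libraries were fitted without the other groups, RCA1 and RPE1 were the 2 calls left. In that fit 2061 of 13871 tested genes were higher and 3843 lower. With median-ratio factors the counts were 3 higher and 4 lower in 4A+, and 3 higher and 3 lower in hmox1. On that scale 4163 of 13728 tested genes were higher and 4335 lower in 4A+, and 3630 and 3989 in hmox1.

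RBCS1's share of the small subunit transcript was lower with BV in both strains. It was 14.0% and 12.8% in hmox1 with BV, against 19.0% and 15.3% in hmox1 without it, and 13.9% and 13.2% in 4A+ with BV, against 17.7% and 17.9% in 4A+ without it. The groups did not overlap in either strain, and no test is given for this added ratio. The summed transcript of the pair was 0.15 higher with BV in hmox1 (SE 0.04, adjusted p = 0.00562) and was not called in 4A+ (0.05, SE 0.04, adjusted p = 0.346). With median-ratio factors these were 0.28 (adjusted p = 0.000652) and -0.003 (adjusted p = 0.968).

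The third comparison sets hmox1 against 4A+ in the light. Without BV, hmox1 held less of both small subunit transcripts and of transketolase and more PRK1. RBCS2 was at 6951 and 7563 RPKM in hmox1, against 9422 and 8859.8 in 4A+ (-0.33, SE 0.05, adjusted p = 1.19e-05). RBCS1 was at 1635 and 1368 in hmox1, against 2020.1 and 1936 in 4A+ (-0.40, SE 0.06, adjusted p = 2.59e-05). TRK1 was at 922 and 1080.3 in hmox1, against 1242.5 and 1265 in 4A+ (-0.33, SE 0.06, adjusted p = 7.61e-05). In all 3 the libraries of hmox1 lay below those of 4A+. With median-ratio factors RBCS2, RBCS1 and TRK1 were at -0.68, -0.74 and -0.67, and TRK1 was at -0.21 without hmox1 replicate 1 (adjusted p = 0.000722).

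PRK1 was at 681 and 656 RPKM in hmox1, against 472.1 and 471.9 in 4A+ (0.50, SE 0.06, adjusted p = 6.28e-07), and was called higher under each scaling, at 0.16 with median-ratio factors (adjusted p = 0.0291). SEBP1 was at 799 and 838 in hmox1, against 709 and 728 in 4A+ (0.19, SE 0.04, adjusted p = 0.00125), and FBA3 at 1361 and 1461, against 1302 and 1322 (0.10, SE 0.04, adjusted p = 0.0315). Both turned with median-ratio factors, to -0.15 (adjusted p = 0.00629) and -0.24 (adjusted p = 0.000178), and the call of FBA3 was lost without 4A+ replicate 1 (0.0934, adjusted p = 0.138), 4A+ replicate 2 (adjusted p = 0.0683) or hmox1 replicate 2 (0.0534, adjusted p = 0.225).

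RPE1 was at 698 and 616 RPKM in hmox1, against 763 and 744 in 4A+ (-0.20, SE 0.06, adjusted p = 0.00501), and FBP1 at 416 and 387, against 445 and 447 (-0.15, SE 0.05, adjusted p = 0.0104). Both calls were lost without hmox1 replicate 2 (RPE1 -0.11, adjusted p = 0.0817, and FBP1 -0.10, adjusted p = 0.0849). With median-ratio factors they were at -0.54 and -0.49. RCA1 was at 919 and 863 in hmox1, against 924 and 949 in 4A+, and was not called (-0.07, SE 0.05, adjusted p = 0.196), but was called lower with median-ratio factors (-0.41, adjusted p = 4.4e-06). Of the 9 members 3 were higher and 5 lower, against 53.5% and 11.8% of all tested genes (65.2% in either direction), and their median was -0.15 against 0.24. With median-ratio factors 1 was higher and 8 were lower, where 4166 of 13728 tested genes were higher and 4198 lower. Without hmox1 replicate 2 fewer members were called, and calls over all tested genes were not counted in that fit.

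With BV in both strains 8 of 9 members were lower in hmox1 and none was higher, against 15% and 34.9% of all tested genes (49.9% in either direction). The median over the members was -0.25 and that over all tested genes 0.10. RCA1 was at 608 and 583 RPKM in hmox1 with BV, against 876 and 848 in 4A+ with BV (-0.53, SE 0.05, adjusted p = 4.37e-08). RPE1 was at 482 and 430.5, against 594 and 561 (-0.34, SE 0.06, adjusted p = 6.55e-05), and SEBP1 at 813 and 768, against 1011 and 963 (-0.32, SE 0.04, adjusted p = 9.37e-06). In these the libraries of the strains did not overlap. With median-ratio factors all 9 members were lower, by 0.27 for FBP1 to 0.70 for RCA1. On that scale 3757 of 13728 tested genes were lower and 3305 higher.

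The other differences with BV ran from -0.26 for TRK1 to -0.19 for FBA3 among called genes. With median-ratio factors TRK1 was at -0.43 and FBA3 at -0.36. PRK1, at 672 and 588 RPKM in hmox1 against 763 and 719 in 4A+ (-0.24, SE 0.06, adjusted p = 0.0022), lost its call without hmox1 BV replicate 2 (-0.14, adjusted p = 0.0631). FBP1 was not called (-0.10, SE 0.05, adjusted p = 0.086), but was called lower without hmox1 BV replicate 1 (-0.16, adjusted p = 0.031) as well as with median-ratio factors. PRK1, SEBP1 and FBA3 were lower in hmox1 with BV and higher without it, and for SEBP1 and FBA3 the second direction turned with median-ratio factors.

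**Figure D3:**
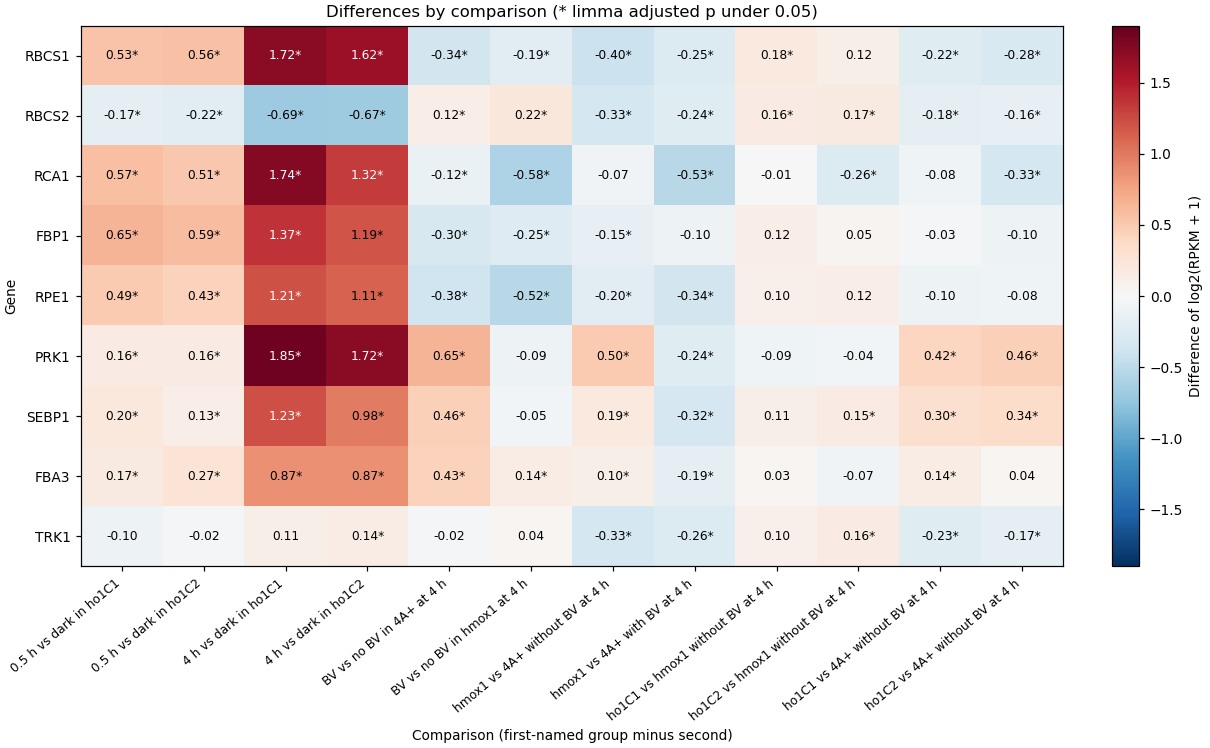
Differences of log2(RPKM + 1) for the 9 genes (rows) in 12 comparisons (columns), first-named group minus second, with red for higher, blue for lower and a star where limma's adjusted p was under 0.05. In the 4 h light columns RBCS2 alone is blue, TRK1 is pale, and the other 7 genes are at 0.87 or more, and the column of BV in 4A+ is red for PRK1, SEBP1, FBA3 and faintly RBCS2 only.

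Set against hmox1 at 4 h without BV, 4 members were called in ho1C2 and 2 in ho1C1, where 38.9% and 27.7% of all tested genes were called. In ho1C2 RBCS2 (0.17, SE 0.05, adjusted p = 0.00923), SEBP1 (0.15, SE 0.04, adjusted p = 0.00992) and TRK1 (0.16, SE 0.06, adjusted p = 0.0328) were higher than in hmox1, and RCA1 was lower (-0.26, SE 0.05, adjusted p = 0.000293), against 16.1% and 22.9% of all tested genes. RBCS2 was at 7953 and 8408 RPKM in ho1C2, against 6951 and 7563 in hmox1, and RCA1 at 722 and 763, against 919 and 863. In ho1C1 RBCS2 (0.16, SE 0.05, adjusted p = 0.0234) and RBCS1 (0.18, SE 0.06, adjusted p = 0.0438) were higher, against 8.15% of all tested genes, and none was lower, against 19.6%. PRK1 was not called in either line (-0.04 and -0.09, SE 0.06 for both). With median-ratio factors SEBP1 (0.19), FBP1 (0.20), TRK1 (0.17) and RPE1 (0.18) were also called higher in ho1C1. On that scale 1741 of 13728 tested genes were higher there and 1752 lower.

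Of the calls against hmox1 made without rescaling, each but that of RCA1 was lost when some single library was left out. Without hmox1 replicate 1, the calls of RBCS2, SEBP1 and TRK1 in ho1C2 and of RBCS2 in ho1C1 were lost (adjusted p = 0.0962, 0.053, 0.461 and 0.189), as was that of RBCS1 in ho1C1 without hmox1 replicate 2 (0.0507, adjusted p = 0.481). Of these, RBCS1 in ho1C1 was at 0.31 without hmox1 replicate 1 (adjusted p = 0.000391) and TRK1 in ho1C2 at 0.28 without hmox1 replicate 2 (adjusted p = 0.000128). The calls were also lost without ho1C2 replicate 2 for RBCS2 and TRK1 (adjusted p = 0.107 and 0.208), without ho1C2 replicate 1 for SEBP1 (0.09), and without ho1C1 replicate 2 for RBCS2 (0.255) or either ho1C1 replicate for RBCS1 (0.111 and 0.174).

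Set against 4A+ at 4 h without BV, PRK1 and SEBP1 were higher and both small subunit genes were lower in each complemented line. PRK1 was at 632 and 664 RPKM in ho1C2 and 642 and 618 in ho1C1, against 472.1 and 471.9 in 4A+ (0.46 and 0.42, SE 0.06 for both, adjusted p = 2.46e-06 and 9.77e-06). With median-ratio factors PRK1 was at 0.16 and 0.15 (adjusted p = 0.0354 and 0.0437). SEBP1 was higher by 0.34 in ho1C2 and 0.30 in ho1C1 (SE 0.04 for both), and with median-ratio factors by 0.04 in each, not called. RBCS1 was lower by 0.28 in ho1C2 (adjusted p = 0.000999) and by 0.22 in ho1C1 (adjusted p = 0.00678), the last call being lost without 4A+ replicate 1 (adjusted p = 0.0643). Both comparisons and that of hmox1 use the same 4A+ libraries.

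Of the 9 members 2 were higher and 4 lower in ho1C2 than in 4A+, against 45.1% and 11.4% of all tested genes (56.4% in either direction). In ho1C1 3 were higher and 3 lower, against 43.5% and 9.76% (53.3% in either direction). Fewer were called there without 4A+ replicate 1, and calls over all tested genes were not counted in that fit. With median-ratio factors 1 was higher and 7 were lower in each line. On that scale 3406 of 13728 tested genes were higher and 4309 lower in ho1C2, and 3308 and 3737 in ho1C1. FBA3 was higher by 0.14 in ho1C1 (adjusted p = 0.00808) and turned to -0.13 with median-ratio factors, and its call was lost without 4A+ replicate 1 (0.0589). In ho1C2 FBA3 was not called (0.04), and turned to -0.26 with median-ratio factors (adjusted p = 7.31e-05). RCA1 was lower by 0.33 in ho1C2 (SE 0.05, adjusted p = 1.2e-05) and not called in ho1C1 (-0.08, SE 0.05, adjusted p = 0.169). TRK1 was lower by 0.17 in ho1C2 (adjusted p = 0.0197) and by 0.23 in ho1C1 (adjusted p = 0.0024), and its call in ho1C2 was lost without 4A+ replicate 1 (0.0549), 4A+ replicate 2 (0.0937) or ho1C2 replicate 1 (0.146). RBCS2 was lower by 0.16 and 0.18 (adjusted p = 0.0101 and 0.00596), and both calls were lost without 4A+ replicate 1 (0.128 and 0.0904) and without replicate 1 of the line itself (0.112 and 0.114). With median-ratio factors the differences in ho1C2 and ho1C1 were -0.63 and -0.34 for RCA1, -0.58 and -0.49 for RBCS1, -0.47 and -0.50 for TRK1, and -0.46 and -0.44 for RBCS2, all called. RPE1 (-0.08 and -0.10) and FBP1 (-0.10 and -0.03) were not called in either line without these factors. With them RPE1 was at -0.38 and -0.36 and FBP1 at -0.40 and -0.29, all called lower.

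Between the complemented lines few members differed. SEBP1 was higher in ho1C2 than in ho1C1 in the dark, at 463.5 and 459 RPKM against 379.8 and 373 (0.29, SE 0.04, adjusted p = 0.000506), where 2.77% of all tested genes were higher, 0.67% lower and 3.44% called. At 0.5 h it was at 505 and 506 in ho1C2, against 442 and 424 in ho1C1 (0.22, SE 0.04, adjusted p = 0.00313), where 10.8% of all tested genes were higher, 2.21% lower and 13% called, but not with median-ratio factors (0.10, adjusted p = 0.155) or without ho1C1 replicate 2 (0.19, adjusted p = 0.0609). At 4 h the lines overlapped in SEBP1, and RCA1 was lower in ho1C2 (-0.25, SE 0.05, adjusted p = 0.00157), where 4.63% of all tested genes were lower, 7.49% higher and 12.1% called.

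The 4 h light response of SEBP1 was smaller in ho1C2 (-0.25, SE 0.06, adjusted p = 0.0273), as was that of RCA1, against 3.19% of all tested genes with a smaller response and 4.73% called. The SEBP1 call did not hold without any 1 of 7 of the 8 libraries (adjusted p from 0.0511 to 0.128). None of the 9 differed between lines in its 0.5 h response by limma, against 1.71% of all tested genes; at an unadjusted p under 0.05 none did either.

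Profiles over the 10 group means of log2(RPKM + 1) were compared within 2 sets of genes that were noticed in these data. Pearson correlations among PRK1, SEBP1 and FBA3 ran from 0.95 to 0.98 and among RBCS1, RCA1, FBP1 and RPE1 from 0.95 to 0.98, against 0.78 to 0.92 between these sets. RBCS2 correlated with the others at -0.90 to -0.32, and TRK1 with all but RBCS2 at 0.57 to 0.68. These are descriptions over 10 points that share the change from dark to light.

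The ratio of the summed PRK1, SEBP1 and FBA3 values to the summed RBCS1, RCA1, FBP1 and RPE1 values is taken within a library and has no library factor in it. It was 1.042 and 1.048 in the dark, 0.839 and 0.841 at 0.5 h and 0.852 and 0.811 at 4 h in ho1C2, and 1.086 and 1.058, 0.830 and 0.826, and 0.797 and 0.794 in ho1C1. With BV at 4 h it was 1.10 and 1.105 in hmox1 with BV, against 0.775 and 0.9135 in hmox1 without BV, and 1.029 and 1.053 in 4A+ with BV, against 0.598 and 0.6185 in 4A+ without BV. Light in the complemented lines thus went with a lower ratio, and BV at 4 h with a higher one, in every library. The genes in each sum were chosen after their values were seen, so no test is given.

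**Figure D4:**
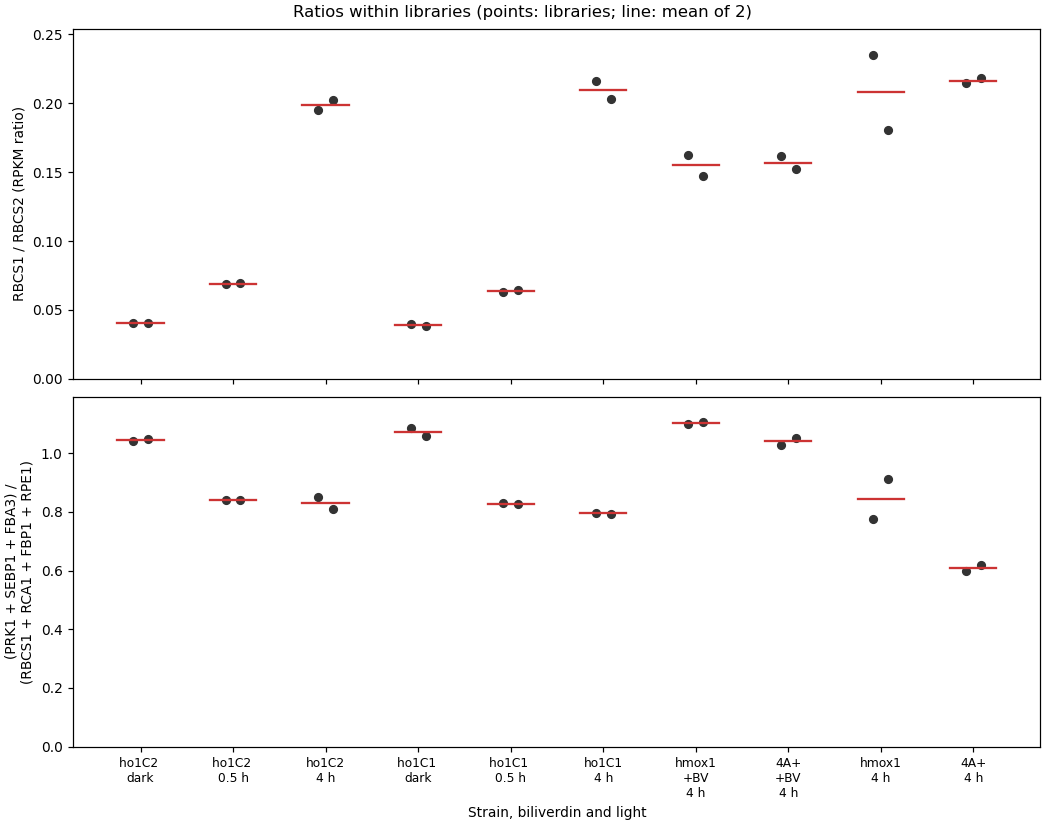
Ratios within each library for the 10 groups, with 1 point per library and a line at the mean of 2. The upper panel gives RBCS1 over RBCS2, which is 0.038 to 0.041 in the dark and 0.18 to 0.24 at 4 h without BV, and the lower panel the summed PRK1, SEBP1 and FBA3 over the summed RBCS1, RCA1, FBP1 and RPE1.

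Ordered from low to high, the group means of RBCS1 were 513 RPKM in ho1C1 and 528 in ho1C2 in the dark, 744 and 776 at 0.5 h, 1307 in hmox1 with BV, 1501 in hmox1, 1558.5 in 4A+ with BV, 1625 in ho1C2 and 1693.5 in ho1C1 at 4 h, and 1978 in 4A+. The libraries of neighbours in this order overlapped between hmox1 without BV, 4A+ with BV, ho1C2 and ho1C1 at 4 h. For RBCS2 the order began with hmox1 without BV at 7257 RPKM and ended with the dark groups at 13044 in ho1C2 and 13097 in ho1C1, which overlapped. For PRK1 the highest mean was 741 in 4A+ with BV, and the other groups lit for 4 h stood at 629.7 to 669 with overlapping libraries, apart from 4A+ without BV at 472.

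The 5 IDs outside the set whose group means most resembled the mean profile of the 9 genes were g11619, Cre16.g650100, Cre07.g334800, Cre01.g016700 and g8178, with Pearson correlations of 0.985 to 0.988 over the 10 groups. The ID most like RBCS1 was Cre07.g334800, at 0.997, with group means between 66.1 and 233 RPKM. The ID most like RBCS2 was Cre01.g017600, at 0.975, with group means between 1.36 and 14.4 RPKM. None of these IDs is paired with a name in the sources used here.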

How the data were processed

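The authors deposited 1 table with a column for each of 20 libraries. Its values are taken as RPKM by the authors, inferred from the values, since no header names the unit. STAR 2.3.0 and HTSeq are named, per the submitters' processing notes, with no role given. No source used here gives the genome build, the annotation, the strand setting or the treatment of reads shared by similar genes. RPKM depends on all other genes of a library, so a wide shift in one group moves every value.

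From these values limma 3.58.1 in R 4.3.3 was fitted to log2(RPKM + 1), with trend and robust moderation and a mean for each group (10 residual degrees of freedom). The 13871 genes that reached 1 RPKM in 2 or more libraries were tested, and 3866 were left out. P-values were adjusted within each of 17 comparisons of groups and 3 of responses. The script was tested on simulated data. The members and lists were chosen with earlier results of these data known. All 9 members were to be named, with the 5 IDs most like their mean profile. Other genes of the pathway, and HMOX1 as a check of the labels, were not analysed here because no table used here names their IDs. The RefSeq table of Chlamydomonas_reinhardtii_v5.5 matched all 9 members and 11713 IDs and was used only for gene order. Alternatives were a pseudocount of 0.1, no filter, median-ratio factors, rescaling every library to an equal sum, a replicate block, array weights, a fit of the compared groups alone and leaving out each library. The summed RBCS row, the ratios and the early share, with their median-ratio values, were added after seeing the data.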

Additional observations from a re-analysis of the deposited data

Results flagged for a closer look

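Of the 9 genes, 4 differed between hmox1 and 4A+ in their response to BV by limma's test of the difference, where 33.6% of all tested genes were called and 25.5% in that direction. The values were -0.7381 for PRK1, -0.508 for SEBP1, -0.4612 for RCA1 and -0.2935 for FBA3 on the log2 scale. PRK1 and SEBP1 were higher with BV in 4A+ (0.65 and 0.46) and were not called in hmox1 (-0.09 and -0.05), while RCA1 was lower in hmox1 (-0.58) and less so in 4A+ (-0.12). Between the complemented lines, the 4 h light response was smaller in ho1C2 than in ho1C1 for RCA1 (-0.4185) and SEBP1 (-0.2499), the last with a higher dark level in ho1C2. Of all tested genes 4.73% were called there and 3.19% in that direction. The SEBP1 call was lost with equal sums (-0.249, limma adjusted p = 0.0771) and when most of the single libraries were left out. With median-ratio factors the BV values of PRK1, SEBP1 and RCA1 were -0.56, -0.33 and -0.29, and FBA3 was not called (-0.12). RBCS1 (0.32), RBCS2 (0.27), FBP1 (0.22) and TRK1 (0.24) were then called in the opposite direction. What lies behind these differences was not tested.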

How the results depend on the processing

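Of the 180 member results (9 genes in 20 comparisons), all kept their direction and side of the threshold with a pseudocount of 0.1. Leaving out 1 library at a time gave 754 results with the same call, 60 that lost it, 14 that gained one and 0 that turned. With median-ratio factors 10 turned: hmox1 against 4A+ without BV gave -0.1534 for SEBP1 and -0.2372 for FBA3, ho1C2 and ho1C1 against 4A+ gave -0.2626 and -0.1256 for FBA3, 0.5 h against dark in ho1C2 and ho1C1 gave 0.1803 and 0.3177 for RBCS2 and 0.3815 and 0.3878 for TRK1, and 4 h against 0.5 h gave -0.0575 and -0.1 for TRK1. The count of members called for hmox1 against 4A+ without BV (8) was 4 with the compared groups fitted alone and 5 to 8 with a library left out. Of 13871 tested genes, 7418 were higher and 1632 lower, and 5887 and 1048 with the groups alone. For BV in hmox1 (6) the member count was 2 with the groups fitted alone, where the tested genes went from 2848 higher and 5231 lower to 2061 and 3843. For ho1C2 against hmox1 (4) the member count was 1 with array weights, 0 with the groups alone and 2 to 4 with a library left out. The tested genes went from 2230 higher and 3171 lower to 1142 and 1890 with array weights and 1041 and 1653 with the groups alone. For ho1C1 against hmox1 (2) the member count was 1 with no filter and 6 with median-ratio factors. It was 0 with equal sums, array weights or the groups alone, and 0 to 3 with a library left out. There 1131 tested genes were higher and 2718 lower. Without the filter these were 1117 and 2656 of 17229, with median-ratio factors 1741 and 1752 of 13728, and with equal sums 904 and 2894 of 14273. With array weights they were 420 and 1251, and with the groups alone 258 and 883. For ho1C1 against 4A+ (6) the member count fell with some libraries left out. There 6038 of 13871 tested genes were higher and 1354 lower with all libraries. Calls over all tested genes were not counted with a library left out, here or in the other comparisons. For ho1C2 against ho1C1 in the dark (1) it was 3 with array weights and 2 with the groups alone. The tested genes went from 384 higher and 93 lower to 827 and 214 with array weights and 432 and 118 with the groups alone. Between these lines at 0.5 h (1) the member count was 0 with median-ratio factors and 2 with equal sums. It was 3 with array weights or the groups alone, and 0 to 1 with a library left out. There 1498 tested genes were higher and 307 lower. These were 665 and 1022 of 13728 with median-ratio factors and 2227 and 208 of 14273 with equal sums. With array weights they were 2526 and 569, and with the groups alone 1862 and 579. For the BV response between strains (4) the member count was 7 with median-ratio factors. The tested genes went from 1115 higher and 3540 lower to 2196 and 2254 of 13728. For the 4 h response between lines (2) the member count was 1 with equal sums and 1 to 2 with a library left out. With equal sums the tested genes went from 213 higher and 443 lower to 179 and 384 of 14273. The groups alone leave fewer samples to estimate the spread, and counts both fell and rose in that setting. The cause of these changes was not tested for any setting.

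The labels do not tie the replicate numbers together, so the numbers were not taken to pair the samples. The deviations of same-numbered libraries correlated above 0.1 in 16 of 45 pairs of groups and under -0.1 in 0. The median was 0.0788 and the range -0.0979 to 0.3303. Whether the numbers mark something shared between groups was not tested. With the replicate block, 178 of 180 results kept their call and 2 gained one, SEBP1 in ho1C1 against hmox1 (adjusted p = 0.0493) and PRK1 in ho1C2 against ho1C1 at 0.5 h (adjusted p = 0.0413), which made that count 2. Read depth is unknown, so counting error could not be set beside the spread of 2 libraries.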

Other observations

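The 9 transcripts together held 1.86% to 2.35% of a library's RPKM. The makeup of that share differed with light more than its size. In ho1C2 the small subunit pair held 1.83% and 1.88% of the total in the dark and 1.25% and 1.35% at 4 h, and the other 7 genes 0.431% and 0.448% in the dark and 0.765% and 0.796% at 4 h. In ho1C1 the pair held 1.80% and 1.86% in the dark and 1.25% and 1.30% at 4 h, and the other 7 genes 0.417% and 0.409% in the dark and 0.811% and 0.766% at 4 h.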
